A study of Mus musculus with 4 samples.

Results

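The Smad and Ski genes are 10 genes of transforming growth factor beta (TGF-beta) and bone morphogenetic protein (BMP) signalling, chosen by name out of the 21951 protein-coding genes of the GENCODE M21 annotation of the mouse genome (mm10, GRCm38). They comprise the inhibitory Smads Smad6 and Smad7, the receptor Smads Smad1, Smad2, Smad3, Smad5 and Smad9, the common Smad Smad4, and the Ski family genes Ski and Skil. Occupancy of Eya1, a transcriptional coactivator with no DNA-binding domain of its own, was profiled in embryonic kidneys by chromatin immunoprecipitation and sequencing (ChIP-seq). The 4 samples were 2 Eya1 ChIP replicates, 1 input and 1 IgG control, all of E13.5 kidneys, and without the controls, which were not analysed here, no background level can be set against the Eya1 peaks. Every ChIP assay pooled 80 kidneys of Eya1HA-FLAG knockin mice kept on a mixed C57BL/6J and 129/Sv background, whose Eya1 protein carries HA and FLAG tags and was pulled down with anti-FLAG beads. Whole kidneys were used, so the peaks cannot be assigned to a kidney cell type, and whether the knockin embryos carried 1 or both copies of the tagged allele is not given in the sources used here.

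Ligands of the TGF-beta and BMP families bind pairs of receptor kinases, which phosphorylate the receptor Smads. These join Smad4, enter the nucleus and bind DNA with partner factors, while Smad6 and Smad7 block the receptors or their access to receptor Smads and are themselves induced by the pathway. Ski and Skil bind Smad complexes and recruit corepressors, and BMP and TGF-beta signals are known to shape the nephron progenitor pool and the branching of the ureteric bud.

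Each Eya1 replicate was represented by 1 list of peak coordinates, with 3989 peaks at promoters of protein-coding genes in replicate 1 and 3465 in replicate 2. The lists hold no scores or read counts, so the depth behind a peak is unknown and a gene without a peak was not shown to lack Eya1. The median peak width was 1069 bp in replicate 1 (168 to 5380 bp) and 188 bp in replicate 2 (117 to 2699 bp), so widths were compared only within a list. A promoter peak was a peak whose interval lay within 1 kb of an annotated transcription start site (TSS) of the gene. With 1 group, 2 replicates and coordinates alone no count below was tested, and counts of members are read beside the share over all protein-coding genes or all promoter peaks where one was computed.

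Most of the Smad and Ski genes had an Eya1 peak at the promoter. Of the 10 genes, 7 had a promoter peak in replicate 1 (20.2% of all protein-coding genes did), 8 in replicate 2 (14.7%) and 9 in at least 1 list (23.5%). Both lists held a promoter peak at 6 genes, Smad1, Smad2, Smad4, Smad5, Smad7 and Skil, and 11.5% of all genes had a peak in both. Ski alone had a peak only in replicate 1, as 8.76% of all genes did. Smad3 and Smad6 had peaks only in replicate 2, as 3.22% of all genes did. Smad9 had none.

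The 10 genes held 22 peaks, 8 in replicate 1 and 14 in replicate 2, and all 22 were promoter peaks that also overlapped the gene body. Over the whole lists, 93.3% of replicate 1 peaks and 83.0% of replicate 2 peaks lay at promoters of protein-coding genes. None of the genes, which span from 27.5 kb (Skil) to 111.0 kb (Smad3), had a body peak more than 1 kb from its own TSSs, and such peaks were rare in the genome as well, at 1.97% of all genes in either list. A replicate 1 peak was met by 10 of the 14 peaks of replicate 2, of which 9 lay wholly inside it, and of all promoter peaks of replicate 2, 77.6% met one and 75% lay wholly inside one. In the other direction, 6 of 8 peaks of replicate 1 were met by a replicate 2 peak, beside 55.6% of all promoter peaks of replicate 1.

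**Figure D1:**
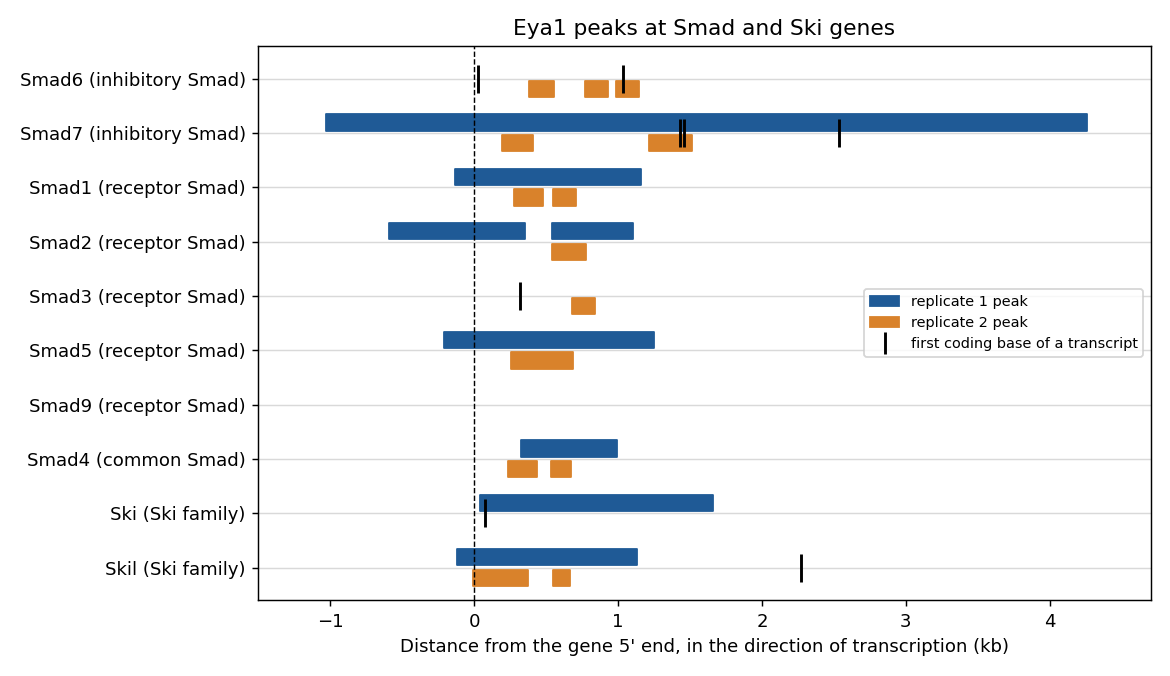
Promoter peaks of the Smad and Ski genes in the 2 Eya1 replicates, plotted by distance from the 5′ end of each gene (kb, downstream to the right), with vertical ticks at the first coding base of transcripts. The Smad7 peak of replicate 1 reaches from 1031 bp upstream to 4258 bp downstream, Smad3 and Smad6 have peaks in replicate 2 alone, and Smad9 has none.

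Smad7, which blocks both TGF-beta and BMP receptors, carried the widest Eya1 interval of the set. Replicate 1 held a single peak of 5290 bp at chr18:75366498-75371787 (mm10), which spans the 5′ end of the gene from position -1031 to 4258, and only 3 of the 4444 genes with a promoter peak in that list had more covered bases within 5 kb of the 5′ end. Replicate 2 held 2 peaks inside that interval. The first was 220 bp wide, 192 to 411 bp downstream of the 5′ end and wholly in untranslated exon. The second was 301 bp wide, 1213 to 1513 bp downstream, with 71.1% of its bases in untranslated and 28.9% in coding exon. It covers the first coding bases of annotated transcripts at 1427 and 1461 bp. The divergent gene Gm20544 also has a TSS within 1 kb, so the 5290 bp cannot be assigned to Smad7 alone.

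Smad6, the inhibitory Smad that acts mainly on BMP receptors, had 3 peaks in replicate 2 and none in replicate 1. In order from the 5′ end they were 178, 158 and 163 bp wide, and the widths lay at the 41.0th, 30.7th and 33.5th percentiles of promoter peaks in that list. They lay downstream of the 5′ end of the gene, at 380 to 557, 772 to 929 and 983 to 1145 bp. Of all protein-coding genes, 0.451% had 3 or more promoter peaks in replicate 2, and 0.0319% (7 genes) had that number together with none in replicate 1. Most genes had no peak, and these were 99 of the 3227 genes with a promoter peak in replicate 2. The 7 were among 707 genes with one in replicate 2 only. With peaks within 100 bp joined, the 2 peaks farthest from the 5′ end merge, so Smad6 no longer has 3. The nearest replicate 1 peak was 150.0 kb upstream, at the TSSs of Rpl4 and Zwilch. The peak at 380 to 557 bp had a G+C content of 45.5%, at the 0.649th percentile of promoter peaks in the list, and the other Smad6 peaks had 75.3% and 65.6%.

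The peak farthest into Smad6 covers an annotated start codon 1035 bp downstream of the 5′ end. Its coding part is shown because it is the only Smad6 peak stretch in coding exon, at chr9:64020914-64021024 (mm10) on the minus strand, written 5′ to 3′ with CpG dinucleotides in capitals.
Smad6 coding exon: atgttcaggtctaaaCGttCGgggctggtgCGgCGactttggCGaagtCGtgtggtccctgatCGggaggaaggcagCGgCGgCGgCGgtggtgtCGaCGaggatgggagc
The stretch of 111 bp begins at the start codon and holds 13 CpG dinucleotides.

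Among the receptor Smads that carry BMP signals, Smad1 and Smad5 had peaks in both lists and Smad9 in neither. At Smad1, replicate 1 had 1 peak of 1289 bp at chr8:79398362-79399650 (mm10), from position -132 to 1156, and replicate 2 had peaks of 203 and 163 bp inside it, both in intron. At Smad5, replicate 1 had 1 peak of 1458 bp at chr13:56702802-56704259, from position -208 to 1249. Replicate 2 had 1 peak of 431 bp inside it, at the 87.1th percentile of promoter peaks in its list. The small RNA genes Gm27301 and Gm27834 have TSSs within 1 kb of the Smad5 5′ end. Smad9 had 1 annotated TSS, and the nearest replicate 1 peak, 1128 bp wide, lay 5.55 kb beyond the gene at the TSS of Rfxap. The nearest replicate 2 peak, 118 bp wide, lay 19.7 kb upstream at Alg5 and Exosc8.

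The replicate 2 peaks of Smad1 are shown in full because both lie in intron close to the 5′ end, at chr8:79399039-79399241 and chr8:79398809-79398971 (mm10), on the minus strand, 5′ to 3′, with CpG dinucleotides in capitals.
Smad1 peak of 203 bp: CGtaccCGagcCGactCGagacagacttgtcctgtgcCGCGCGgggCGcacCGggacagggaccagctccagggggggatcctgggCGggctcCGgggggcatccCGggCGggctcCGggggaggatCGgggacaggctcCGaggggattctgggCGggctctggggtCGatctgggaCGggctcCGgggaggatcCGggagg
Smad1 peak of 163 bp: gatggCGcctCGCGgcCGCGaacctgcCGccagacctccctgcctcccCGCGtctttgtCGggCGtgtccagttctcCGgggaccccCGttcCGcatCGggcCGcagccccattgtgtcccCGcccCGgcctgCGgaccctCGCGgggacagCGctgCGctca
They hold 21 and 22 CpG dinucleotides, and their G+C contents were 74.9% and 74.8%, beside a median of 70.3% over the promoter peaks of replicate 2.

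Among the receptor Smads that carry TGF-beta and activin signals, Smad2 had peaks in both lists and Smad3 in replicate 2 alone. At Smad2, replicate 1 had peaks of 944 bp (position -590 to 353) and 569 bp (539 to 1107). In that list 0.806% of all genes had 2 or more promoter peaks, which is 177 of the 4444 genes with any. Replicate 2 had 1 peak of 235 bp at Smad2, inside the narrower replicate 1 peak. Smad3 had 1 peak of 163 bp, 680 to 842 bp downstream of the 5′ end and wholly in intron, and only 1 of its 5 annotated TSSs lay within 1 kb of it.

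The Smad3 peak is shown because its CpG content was low among promoter peaks of the list, with an observed to expected CpG ratio of 0.516 at the 7.4th percentile. It lies at chr9:63757152-63757314 (mm10), is written 5′ to 3′ on the minus strand and has CpG dinucleotides in capitals.
Smad3 peak of 163 bp: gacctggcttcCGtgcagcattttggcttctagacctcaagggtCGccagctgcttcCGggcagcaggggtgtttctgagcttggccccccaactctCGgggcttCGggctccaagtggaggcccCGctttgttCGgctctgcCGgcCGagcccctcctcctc
It holds 9 CpG dinucleotides, fewer than either Smad1 peak above.

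Smad4, the common partner of all receptor Smads, had peaks in both lists. Replicate 1 had 1 peak of 671 bp at chr18:73702787-73703457 (mm10), at the 14.0th percentile of promoter peaks in its list, and replicate 2 had peaks of 201 and 145 bp. The peak of 201 bp had a G+C content of 85.6%, at the 99.7th percentile of promoter peaks in the list. Smad4 has 6 annotated TSSs, of which 1 lay within 1 kb of a peak. The Smad2 peaks of replicate 1 given above lie on the same chromosome, at chr18:76240990-76241933 and chr18:76242119-76242687.

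The Ski family genes differed in the lists that held them. Ski had 1 peak of 1622 bp in replicate 1 at chr4:155220932-155222553 (mm10), from 39 to 1660 bp downstream of its 5′ end. Of its bases 59.7% lay in coding exon, and the first coding base of the gene, at 72 bp, lay inside it. Replicate 2 had none at Ski, and its nearest peak lay 135.0 kb beyond the gene. Skil, which encodes SnoN, had 1 peak of 1252 bp in replicate 1 at chr3:31094939-31096190 and peaks of 380 and 117 bp in replicate 2, both inside it. The peak of 380 bp was the only one of the 14 replicate 2 peaks that lay over the 5′ end of its gene. Of all replicate 2 peaks within 1 kb of a gene 5′ end, counted per gene, 6.82% did. In replicate 1, 5 of the 8 member peaks lay over a 5′ end, beside 75.3% of all peaks counted in that way.

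The narrowest member peak, the Skil peak of 117 bp, is shown because its width is also the least in replicate 2. It lies in intron at chr3:31095606-31095722 (mm10), is written 5′ to 3′ on the plus strand and has CpG dinucleotides in capitals.
Skil peak of 117 bp: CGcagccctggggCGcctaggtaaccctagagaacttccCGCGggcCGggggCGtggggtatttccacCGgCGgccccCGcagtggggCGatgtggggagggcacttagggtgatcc
It holds 10 CpG dinucleotides.

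**Figure D2:**
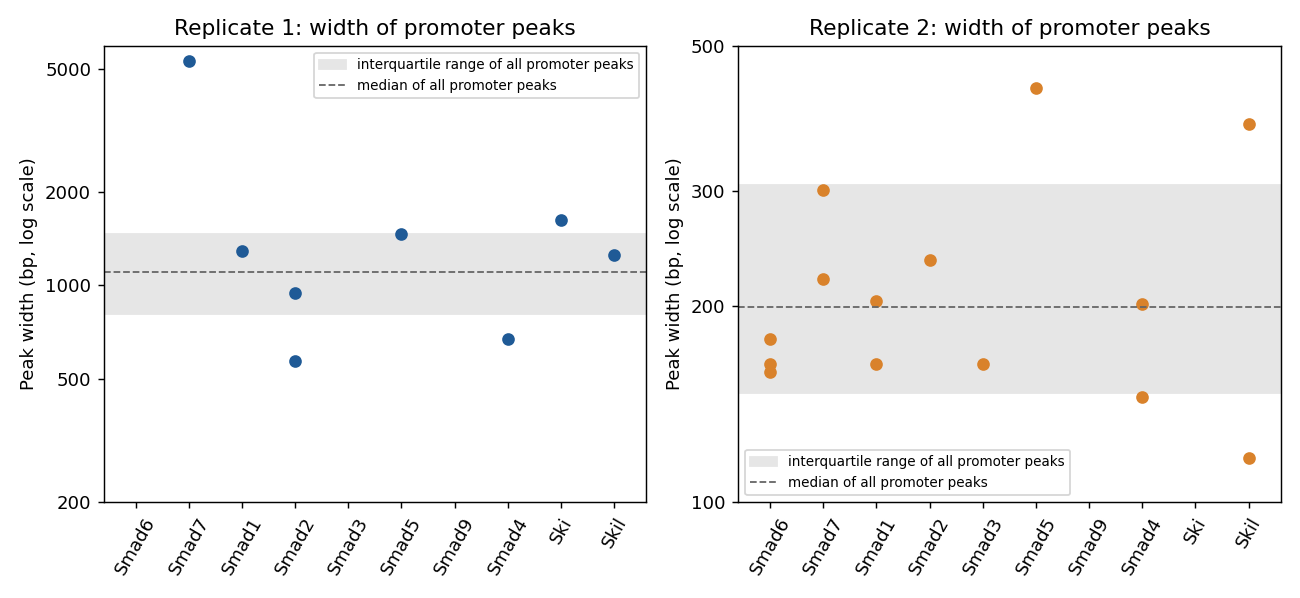
Width in bp of each promoter peak of the Smad and Ski genes, by gene and replicate, beside the widths of all promoter peaks of the same list. Smad7 at 5290 bp stands far above the replicate 1 promoter peak median of 1100 bp. The replicate 2 peaks run from 117 to 431 bp around a promoter peak median of 199 bp.

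Inhibitory and receptor Smads were set side by side by the bases that peaks covered within 5 kb of the gene 5′ end. In replicate 1, Smad7 had 5290 bp covered and Smad6 had 0. The receptor Smads in that list had 1513 bp at Smad2, 1458 bp at Smad5, 1289 bp at Smad1 and 0 at Smad3 and Smad9. Smad7 was thus above every receptor Smad and Smad6 level with the lowest, so the classes overlapped.

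In replicate 2, Smad7 had 521 bp and Smad6 499 bp. The receptor Smads had 431 bp at Smad5, 366 bp at Smad1, 235 bp at Smad2, 163 bp at Smad3 and 0 at Smad9. Both inhibitory Smads lay above all 5 receptor Smads in that list, although Skil, of the Ski family, lay close below Smad6 at 497 bp. The class mean was higher for inhibitory Smads by 1793 bp in replicate 1 and by 271 bp in replicate 2, and the sizes cannot be compared between lists of such different peak widths. Within 2 kb of the 5′ end the differences were 664 and 271 bp. Without Smad7 the difference became -852 bp in replicate 1 but stayed at 260 bp in replicate 2, so the direction rested on Smad7 in replicate 1 and did not in replicate 2. That holds only with narrow peaks kept, as all 3 Smad6 peaks were below the replicate 2 median width of 188 bp. With 2 genes against 5 the difference was not tested.

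**Figure D3:**
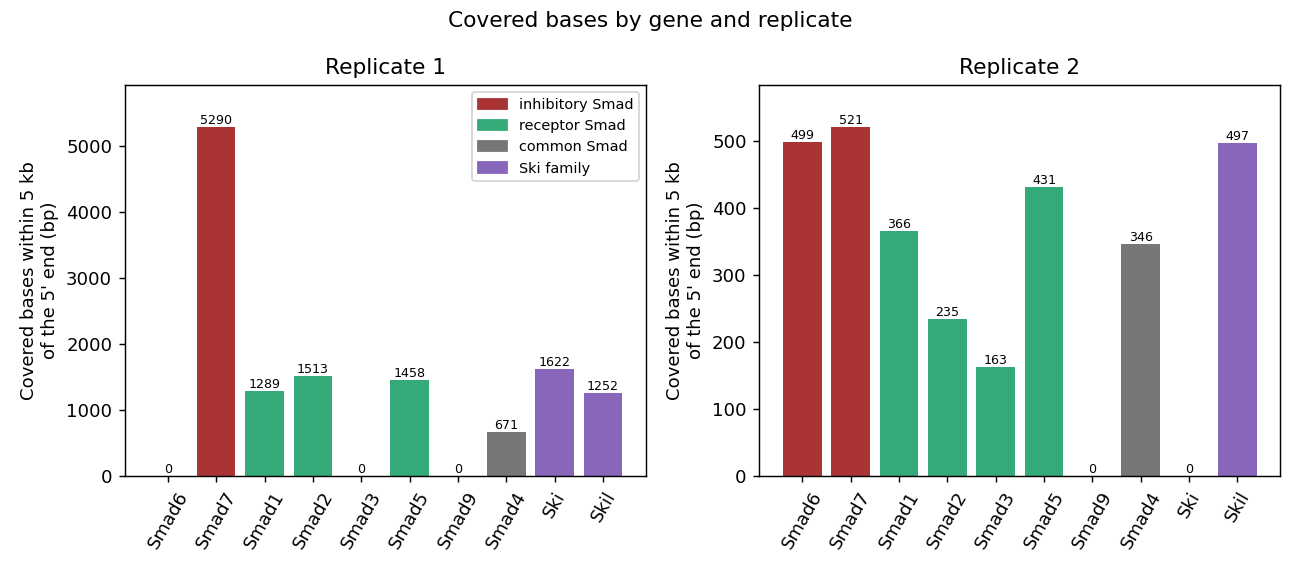
Bases covered by Eya1 peaks within 5 kb of the 5′ end (bp) for each Smad and Ski gene, as bars coloured by class, with replicate 1 and replicate 2 on separate axes because their scales differ. Smad7 reaches 5290 bp in replicate 1, and in replicate 2 Smad7 (521 bp) and Smad6 (499 bp) are above the receptor Smads, whose highest is 431 bp.

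The number of peaks per gene differed as well. In replicate 2, Smad6 had 3 promoter peaks and Smad1, Smad4, Smad7 and Skil had 2 each, so that 5 of the 10 genes had 2 or more, beside 2.71% of all protein-coding genes. Most genes had no peak in that list. Among genes with at least 1 promoter peak there, 5 of 8 members had 2 or more, beside 595 of 3227 genes. Some of these peaks lie close together. With peaks within 100 bp joined, the member peaks of both lists went from 22 to 19, with merging at Smad1, Smad4 and Smad6. Smad1 and Smad4 then had 1 peak each in replicate 2, and the share of all genes was not computed for joined peaks. The inhibitory Smads together had 5 peaks in that list with a median width of 178 bp, and the receptor Smads also had 5 with a median of 203 bp.

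Peaks lay mainly downstream of the gene 5′ ends. The midpoint was downstream for 7 of the 8 replicate 1 peaks and for all 14 replicate 2 peaks, and over all genes these shares were 83.2% and 83.8%. The all-gene midpoints cover only peaks within 1 kb of a gene 5′ end. That rule would leave out the Smad7 peak 1213 to 1513 bp downstream, so the 2 sets are not quite alike. The median midpoint of the replicate 2 peaks was 604.5 bp downstream (182.5 to 1363 bp), beside 288 bp over all genes. Of the bases in the 8 replicate 1 peaks, 15.9% were upstream of the 5′ end, 23.8% in untranslated exon, 12.6% in coding exon and 47.7% in intron. Smad7 alone gave 5290 of these 13095 bp, and all the coding bases came from Smad7 and Ski. In the 14 replicate 2 peaks 0.229% were upstream, 48.7% in untranslated exon, 6.47% in coding exon and 44.6% in intron. Such shares were not computed over all promoter peaks, so they are not read as traits of the members. The first coding base of a transcript, taken as its most upstream annotated coding position, lay in a replicate 1 peak at Ski and Smad7. In replicate 2 this held at Smad6 and Smad7. That was 2 of 7 and 2 of 8 genes with a promoter peak, beside 60.4% and 27.5% of all such genes. The first coding bases nearest to the 5′ ends of Smad1 and Smad4 are 27335 and 25869 bp downstream, and that of Smad3, at 317 bp, lay outside its peak.

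**Figure D4:**
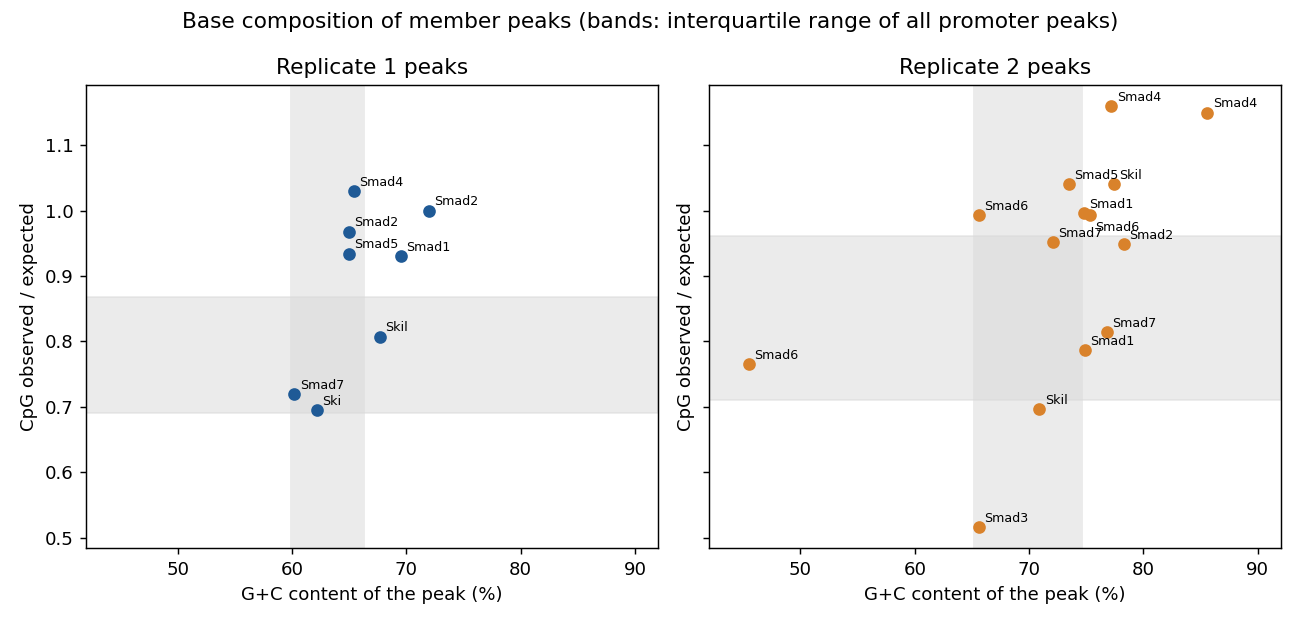
G+C content (%) against the observed to expected CpG ratio of each member peak, with replicate 1 and replicate 2 on separate axes and the grey bands giving the interquartile range of all promoter peaks of that list. In replicate 2, 1 Smad6 peak stands alone at 45.5% G+C, Smad3 has the lowest CpG ratio at 0.516, and a Smad4 peak has the highest G+C at 85.6%.

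Short sequence motifs were searched on both strands in 200-bp windows on the peak midpoints. GGCGCC, a GC-rich element that Smad proteins bind, was present in 5 of the 8 replicate 1 windows (22.5% of all promoter peak windows) and in 7 of the 14 replicate 2 windows (25.4%). GGGCGG, the GC box bound by Sp factors, was in 5 of 8 (52.6%) and 8 of 14 (53.7%). The palindromic Smad element GTCTAGAC and TCAGGTTTC, an element of the homeodomain partners of Eya1, were in no member window, and they were in at most 0.144% of all windows. RE1, the element of the repressor REST, was matched with at most 2 mismatches at Smad7 and Skil in replicate 1, which is 2 of 8 windows beside 3.11%, and in none of 14 in replicate 2, beside 6.0%. GGCGCC and GGGCGG can overlap by shared bases. Some genes gave more than 1 window to a list, and windows of the same gene can overlap between the lists, so the windows are not independent. A match is a description and not a binding site.

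Within 1 kb of either side of the 5′ ends, all 10 genes held GGCGCC (39.3% of all genes) and all 10 held GGGCGG (66.3%). RE1 with at most 2 mismatches was matched at 4 of the 10, Smad4, Smad7, Ski and Skil, beside 19.5% of all genes. GTCTAGAC was found at 2 genes, Smad6 and Smad7, beside 1.68% of all genes. GGCGCC followed 5 bases later by GTCT was found at Skil alone, beside 0.301% of all genes. The Smad7 match lay inside the replicate 1 peak, 538 bp from the nearest replicate 2 peak. The Smad6 match, over the 5′ end of the gene, lay in no peak and 377 bp from the nearest, and the Skil match lay in no peak and 366 bp from the nearest.

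The matches at Smad6 and Skil are shown because both lie close to a peak and inside none. The Smad6 stretch is chr9:64022048-64022071 on the minus strand and the Skil stretch is chr3:31094543-31094589 on the plus strand (mm10), both 5′ to 3′, with the element in capitals.
Smad6 element: gccaaagtGTCTAGACtggcatat
Skil element: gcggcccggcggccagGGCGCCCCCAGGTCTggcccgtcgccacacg

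The genes whose Eya1 pattern was most like that of a member were ranked by the Jaccard index of covered bases within 5 kb of the 5′ end, averaged over the lists, among 5150 genes compared. For Smad7 they were Ssbp3 (0.596), Ing2 (0.522) and Foxc1 (0.517), beside a median of 0.118. For Smad6, from replicate 2 alone, they were Phf13 (0.493), Zranb1 (0.469) and Irf2bpl (0.456), beside a median of 0. The median over genes differed between members, so each index is read against its own. For Smad1 they were Gpatch8 (0.846), Fem1c (0.84) and Smad5 (0.818), beside a median of 0.271. For Smad5 they were Pum2 (0.898), Gpatch8 (0.887) and Ptov1 (0.879), beside 0.268.

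Of the members ranked, only Smad1 had another member, Smad5, among its 3 closest genes. The remaining members with peaks in both lists also had their closest genes outside the Smad and Ski set. They were Mapk6 (0.884), Fcho2 (0.782) and Ncs1 (0.703) for Smad2, beside a median of 0.219. For Smad4 they were Tead1 (0.802), Rhoa (0.75) and Rap1b (0.718), beside 0.174. For Skil they were Sin3b (0.834), Dyrk1b (0.832) and Arglu1 (0.823), beside 0.288.

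The other genes of the pathway, 69 in 7 lists, were counted in the same way. Of these, 18 (26.1%) had a promoter peak in replicate 1, 21 (30.4%) in replicate 2, 14 (20.3%) in both and 25 (36.2%) in either, beside 20.2%, 14.7%, 11.5% and 23.5% of all protein-coding genes. None of the 13 ligands and none of the 8 secreted antagonists had a promoter peak in either list. The receptors had 7 of 13 in either list (53.8%), the negative regulators 8 of 11 (72.7%), the positive regulators 6 of 8 (75%), and the target genes 3 of 12 (25%), each to be read against the same 23.5%.

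Among receptors, Bmpr1a had 1859 bp of promoter peak in replicate 1 and 709 bp in replicate 2, Tgfbr2 had 1656 and 253 bp, Bmpr2 had 1563 and 288 bp, and Tgfbr1 had 1171 and 132 bp. Acvr1, Acvr2a and Acvr2b had peaks in replicate 2 alone. Among negative regulators, the corepressor gene Tgif2 had 1881 bp in replicate 1 and 391 bp in replicate 2, and the ubiquitin ligase gene Smurf2 had 1206 and 482 bp. Trim33 had 1375 and 691 bp and Lemd3 had 1806 and 380 bp. Fkbp1a, Nedd4l and Ppm1a had peaks in replicate 1 alone and Tgif1 in replicate 2 alone.

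Among positive regulators, the acetyltransferase genes Ep300 (2414 and 585 bp) and Crebbp (582 and 125 bp) had peaks in both lists, as did Usp9x (1661 and 170 bp), Rnf111 (955 and 331 bp) and Zfyve9 (917 and 317 bp), and Usp15 had a peak in replicate 2 alone. Of the target genes, the BMP-induced Id3 had 2737 bp in replicate 1 and 381 bp in replicate 2, and Id1 and Id2 had peaks in replicate 2 alone. Of 4 relatives of Ski and Skil, Dach1 had a peak, in replicate 1 alone.

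**Figure D5:**
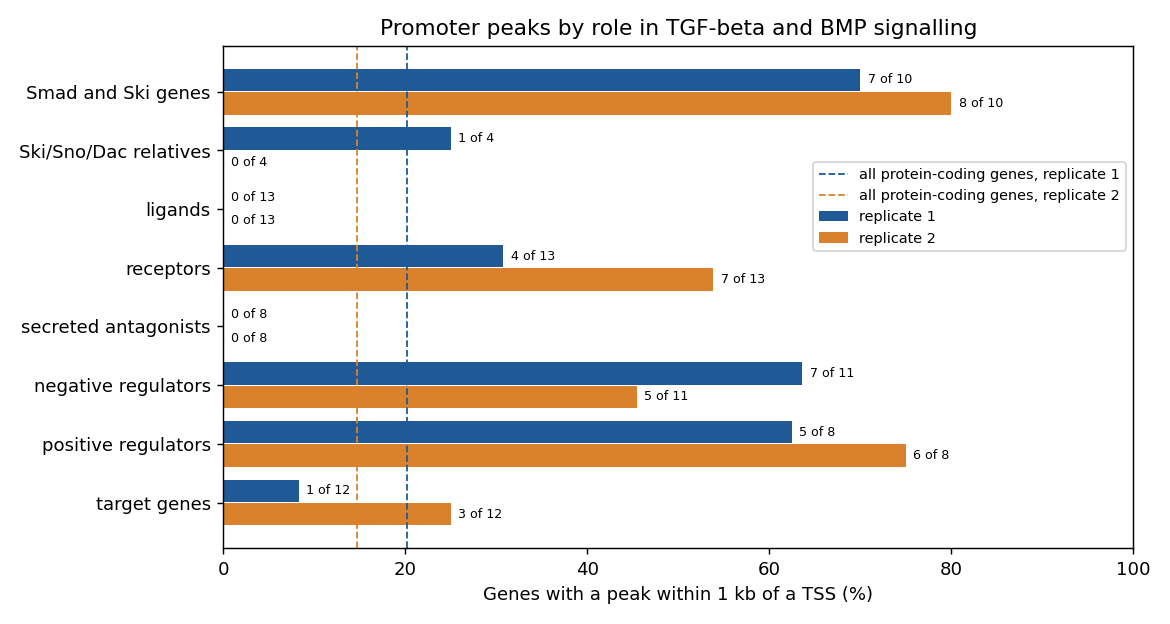
Share (%) of genes with an Eya1 promoter peak by role in TGF-beta and BMP signalling, for replicate 1 and replicate 2, with the number of genes beside each bar and dashed lines at the share of all protein-coding genes (20.2% and 14.7%). The Smad and Ski genes stand at 7 and 8 of 10, and the ligands and secreted antagonists at 0.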

How the data were processed

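Eya1 was profiled by ChIP-seq in 2 replicates, and samples were grouped by their titles. Per their methods, the authors mapped the reads with Bowtie (default settings, mm10) and ran MACS against input or IgG with a range of P cutoffs. Which cutoff and control made each list is not given in the sources used here. The deposited lists hold only chromosome, start and end of each peak, and coordinates are printed 1-based. No peak ran past a chromosome end (0 peaks). The 11 mitochondrial peaks, all in replicate 2, carry a chromosome name that the annotation does not use and were not assigned to genes, while the 13 mitochondrial protein-coding genes stayed among the 21951 counted by gene identifier.

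Peaks were matched to GENCODE M21 gene models and to GRCm38 sequence with Python 3.11.15, numpy 2.4.6 and pysam 0.24.0, and drawn with matplotlib 3.10.9. The overlap and motif steps were tested on simulated data. The members and gene lists were chosen with earlier results of these data known. Named genes were all 10 members, pathway genes with promoter peaks in both lists, by name alone those with a peak in 1 list, and the 3 genes most like each member with peaks in both lists and Smad6. Alternatives covered the distance to a TSS, peak width, joined peaks, overlap, flank and leaving out each replicate.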

Additional observations from a re-analysis of the deposited data

How the results depend on the processing

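Of 40 alternative values other than those leaving out a replicate, 36 were labelled unchanged. They kept the reported direction and stayed within the replicate SD or close to the reported count. The SD exceeded the value itself for the class difference and for the median width (730 ± 764.4 bp), so there little short of a change of sign could fail. Counts passed within a set fold range, so 17 pathway genes in place of 25 and 4 overlapping members in place of 6 passed. The 36 is therefore no measure of stability. The count of gene body peaks was 22 as reported and 19 with peaks within 100 bp joined. It was 12 when only peaks no narrower than their list's median were kept, and 0 more than 1 kb from every TSS of the gene. Members with overlapping promoter peaks in both lists went from 6 to 0 when 50% of both peaks had to overlap, where replicate 1 peaks are much wider than those of replicate 2. The difference in covered bases between inhibitory and receptor Smads, averaged over the lists, was 1032 ± 1076 bp (SD, n = 2), 467.5 ± 277.9 bp within 2 kb, and -296.0 ± 786.3 bp with Smad7 left out, which joins -852 bp in replicate 1 to 260 bp in replicate 2. These SDs also hold the difference in peak width between the lists. With peaks no narrower than the median, replicate 2 gave 86.7 bp, with Smad6 lost and Smad7 alone giving covered bases on the inhibitory side. Leaving out Smad7 was an alternative chosen after seeing the data, as were leaving out Smad9 and leaving out the ligands and secreted antagonists.

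Leaving out 1 replicate gave 8 to 14 gene body peaks, a difference between the classes of 271 to 1793 bp, 7 to 8 members with a promoter peak, 18 to 21 other pathway genes and a median width of 189.5 to 1270.5 bp. Without replicate 1 the peak of Ski was lost, and without replicate 2 those of Smad3 and Smad6. A distance of 500 bp lost Smad3, and the median width lost Smad3 and Smad6. The titles of the controls carry no replicate number, and with 1 group of samples analysed no paired analysis was possible. No result comes from a test. The lists hold no read counts, so what depth limits is unknown.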
